A study of Mus musculus with 12 samples.

Results

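Collagens are secreted or membrane proteins of the extracellular matrix in which 3 chains wind into a triple helix. In skeletal muscle, types I, III and V form the fibrils of the connective tissue around fibres and bundles. Type IV forms the network of the basement membrane that wraps each fibre and capillary, and type VI forms beaded filaments next to it. The other types bind to fibrils, build networks or anchors, or span the cell membrane. The collagen genes were chosen as protein-coding genes with a symbol of the form Col, a type number, the letter a and a chain number. The rule found 44 of the 55450 genes in the count table, and all 44 were among the 19276 genes with enough reads to be tested.

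Reads came from tibialis anterior (TA) muscle pieces of wild-type mice on the 129Pas background (129SvPas in the study's methods). The 12 libraries came from late embryos (E18.5) and from mice aged 2 weeks (wks) or 7 wks, 4 animals per age. No treatment, allele or transgene is named for any group, and sex is not given in the sources used here. The polyA libraries held 63018968 to 123449246 counts each. Levels are given as CPM, counts relative to the size of the library, scaled by TMM, which sets libraries to the same level for most genes. Changes are log2 fold changes of the later against the earlier age with their standard error (SE), and every adjusted p is from edgeR's quasi-likelihood test, corrected over all genes tested with a threshold of 0.05. Genes are said to rise or fall only where they passed it. The values of 4 libraries always stand in the order of replicates 1 to 4, a number that names a mouse within its age only.

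The 6 skeletal muscle markers (*Ckm*, *Acta1*, *Ttn*, *Des*, *Actn2* and *Myod1*) were detected at every age, with sums of 7249 to 14619 CPM at E18.5, 70847 to 99784 at 2 wks, and 72518 to 100876 in the 7 wks libraries. E18.5 replicate 2 held the highest CPM of its age for 32 of the 44 collagen genes, and 7 wks replicate 1 did so for 32 of 44. How often these libraries were highest over all genes was not counted, so these numbers are not set apart from other genes. E18.5 replicate 2 also had the highest summed cartilage and bone markers (85.0 CPM) and epidermis markers (56.0 CPM) of all libraries. Its skeletal muscle marker sum (14619 CPM) was the highest of its age as well. 7 wks replicate 1 had the highest tendon marker sum (487 CPM) and, within its age, the highest fibroblast marker sum (1008 CPM). Values without these libraries stand beside many, but not all, of the results they change. Over the 44 collagen genes the median SD of log2 CPM within an age was 0.52 at E18.5 and 0.37 and 0.45 at the later ages. Over 13568 tested genes with a mean of at least 1 CPM it was 0.32, 0.18 and 0.26. The 44 include genes under 1 CPM, so the sets are unlike, and the difference was not tested.

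*Col4a1* and *Col4a2*, which encode the chains of the common type IV network, start head to head on chromosome 8. In RefSeq (GRCm38.p6) the start of *Col4a2* on the plus strand is at 11312805. That of *Col4a1* on the minus strand is at 11312826, so that 22 bases lie downstream of both starts. Over all annotated exons these genes share 311 bases on opposite strands, 4.2% of *Col4a1* and 4.3% of *Col4a2*. Whether counting used the strand is not given in the sources used here. The stretch below is shown because these genes moved together in the data. Any part of this stretch in their levels was not tested. It covers bases -48 to -19 before the start of *Col4a2*, chr8:11312757-11312786 on the plus strand, and lies downstream of the start of *Col4a1* on the other strand. Capitals mark GGGCGG, the GC box, read on the opposite strand (CCGCCC), and CCAAT.
*Col4a2* upstream: CCGCCCgaggagctccCCAATttgttggcg

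The set of RefSeq upstream sequences used here held windows for 35 of the 44 genes, 38 windows in all. In the 250 bases before the start, on either strand, GGGCGG was found in 22 of the 38 windows (57.9%) and in 32.7% of 32851 windows of all genes. CCAAT was in 34.2% against 33.8%, and TATAAA in 13.2% against 12.4%. A match is a run of letters, not a shown binding site, and members with 2 windows count once for each.

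From E18.5 to 2 wks, 9 of the 44 collagen genes rose and 22 fell. Among the 22 were *Col6a4* and *Col10a1*, which had enough reads for testing at E18.5 only, so they had to differ to be tested. Both also enter the medians. Of all 19276 genes tested, 31.5% rose and 34.2% fell. The genes that rose were *Col4a1*, *Col4a2*, *Col4a3*, *Col4a4*, *Col7a1*, *Col11a2*, *Col15a1*, *Col20a1* and *Col22a1*. The median log2 fold change was -0.88 over the collagen genes and -0.09 over all genes tested. Scaled to the total count, under which the median of all genes moves down by 0.93, 5 rose (13.2% of all genes) and 30 fell (61.9%). Without E18.5 replicate 2, 11 rose (32.0% of all genes) and 16 fell (34.0%), with a median of -0.31.

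In the second interval, from 2 to 7 wks, 22 collagen genes fell (13.9% of all genes did) and 0 rose (13.5%). At an unadjusted p under 0.05 edgeR gave 1 gene higher and 26 lower, and DESeq2 gave 0 higher and 24 lower at its adjusted p. Without 7 wks replicate 3, 1 gene rose, *Col4a3* (0.77; adjusted p = 0.0288). The median log2 fold change was -1.09, against -0.03 over all genes. Without 7 wks replicate 1, 26 fell (12.6% of all genes) and the median was -1.68. Between E18.5 and 7 wks, 4 collagen genes were higher (34.3% of all genes) and 29 lower (37.1%), with a median of -2.19 against -0.09. The 29 again include *Col6a4* and *Col10a1*, tested only because of their level at E18.5.

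Only 4 of the 44 genes had a positive estimate from 2 to 7 wks, *Col4a3*, *Col4a4*, *Col9a1* and *Col22a1*, and none of the 4 passed the threshold. The contrast of the intervals tested whether a gene's change to 2 wks exceeded its change from 2 to 7 wks. It was positive for 13 collagen genes (21.6% of all genes) and negative for 4 (16.8%). The counts were 8 and 5 scaled to the total count, and 7 and 7 with the GC trend removed, a correction of each library for how counts depend on a gene's GC content. The 4 with the more negative first interval were *Col12a1*, *Col19a1*, *Col23a1* and *Col25a1*.

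**Figure D1:**
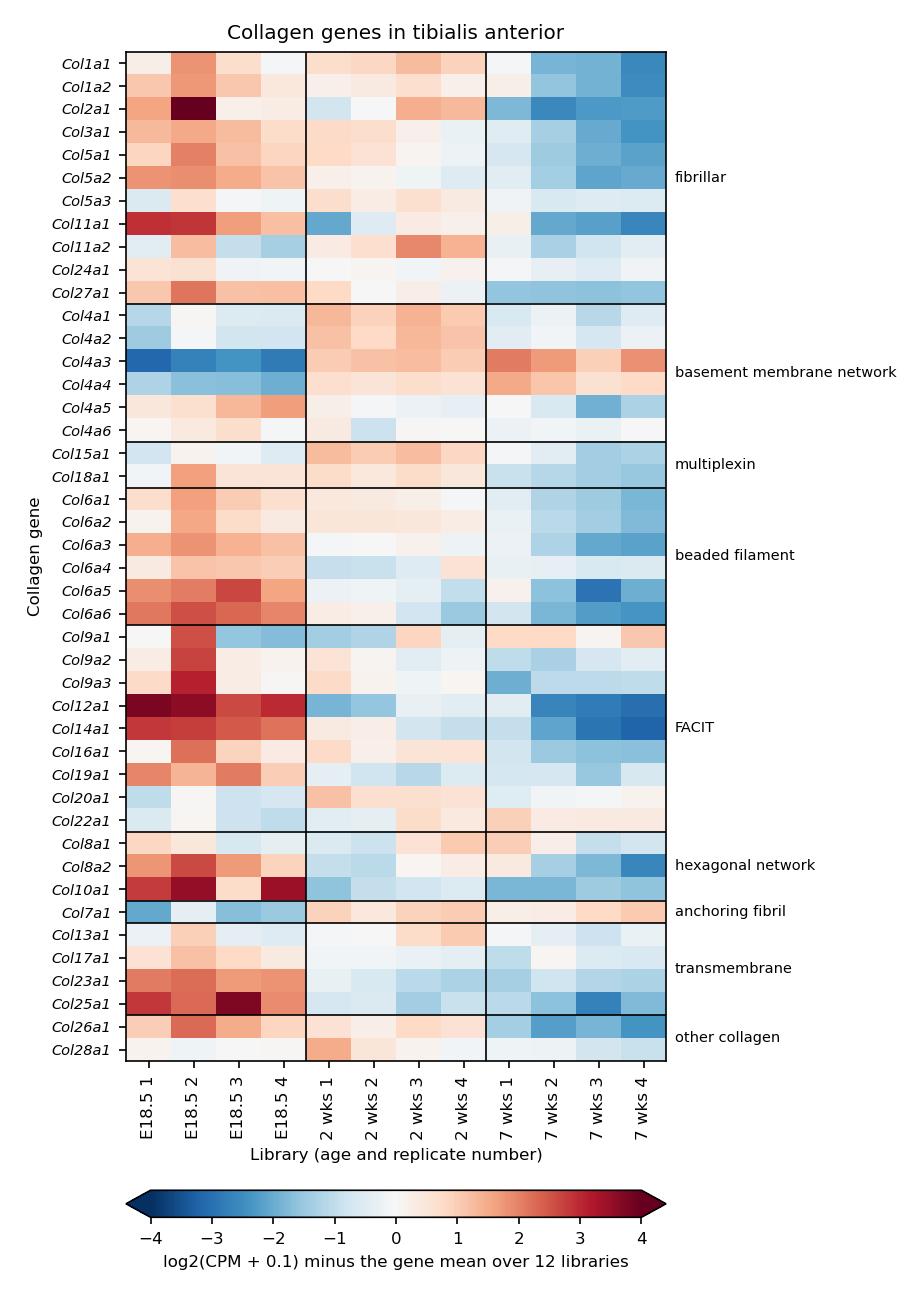
Log2(CPM + 0.1) of each of the 44 collagen genes (rows, grouped by class) in the 12 libraries (columns, by age and replicate), minus the gene's mean over all libraries; the colour scale ends at -4 and 4. Most rows run from red at E18.5 to blue at 7 wks, while *Col4a3*, *Col4a4* and *Col7a1* are blue at E18.5 and red later.

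**Figure D2:**
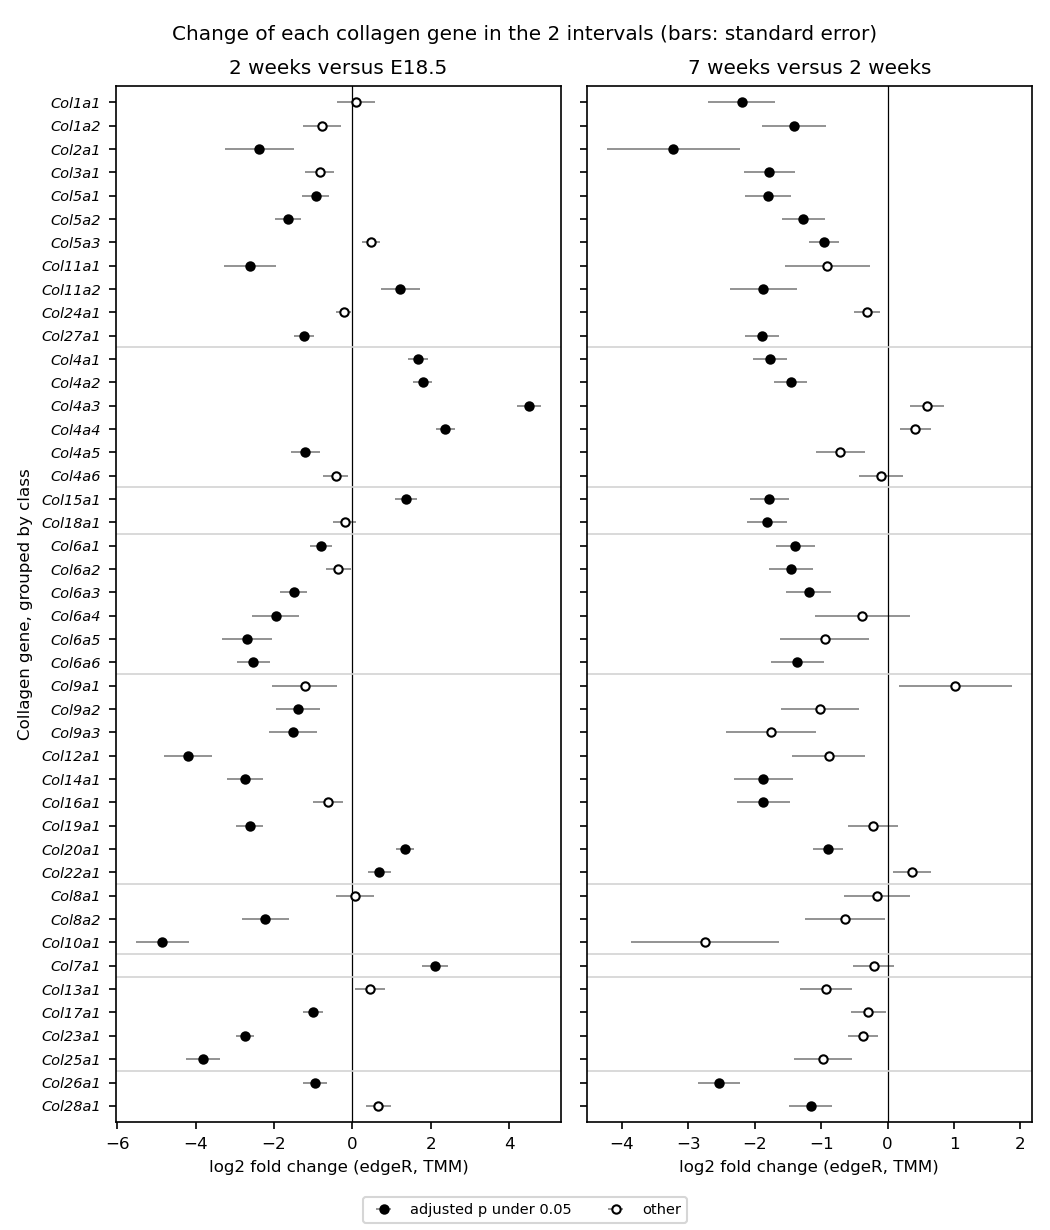
Log2 fold change (x axis, bars 1 SE) of each collagen gene from E18.5 to 2 wks (left) and from 2 to 7 wks (right), with filled points for an adjusted p under 0.05. In the left panel 9 filled points lie right of 0 and 22 left of it; in the right panel all 22 filled points lie left of 0.

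The collagen genes took a smaller share of all counts at each later age. At E18.5 it was 1.97, 3.05, 2.23 and 1.51% in the 4 libraries, at 2 wks 1.04, 0.938, 0.913 and 0.702%, and at 7 wks 0.388, 0.225, 0.149 and 0.155%. These shares of raw counts did not overlap between ages. The mean went from 2.19% ± 0.647 (SD, n = 4) over 0.898% ± 0.142 to 0.229% ± 0.111, and leaving out the 37 mitochondrially encoded genes gave 2.31% ± 0.638, 0.987% ± 0.146 and 0.271% ± 0.133. In muscle pieces, fewer cells of a type and less RNA per cell cannot be told apart. The summed level of 7 fibroblast markers went from 1063 to 1578 CPM over 555 to 847 to 399 to 1008 CPM. From E18.5 to 2 wks 2 of the 7 were higher and 4 lower (31.5% and 34.2% of all genes). From 2 to 7 wks 2 were lower (13.9%). The part of this sum in the collagen levels was not tested.

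The make-up of these reads also differed between ages. Fibrillar collagens took 69.9% ± 2.98 of the collagen counts at E18.5, 56.4% ± 3.5 at 2 wks, and 49.6% ± 11.7 in the 7 wks libraries. The 6 type IV genes took 6.82% ± 1.83, 27.9% ± 3.5 and 30.9% ± 11.5. At E18.5 the type IV share was 4.54, 6.96, 6.73 and 9.03% in the 4 libraries, below all values at 2 wks (28.0, 23.1, 29.6 and 31.1%). At 7 wks it was 15.9, 34.6, 29.7 and 43.4%, which spanned the values at 2 wks on both sides. The lowest of these was replicate 1, where fibrillar collagens took 65.5%. Beaded filament collagens took 14.8% ± 1.20, 9.34% ± 0.398 and 11.1% ± 1.04, and FACIT collagens 6.11% ± 1.27, 1.57% ± 0.0867 and 2.85% ± 0.437. These shares are of counts, not per length, and were not tested.

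**Figure D3:**
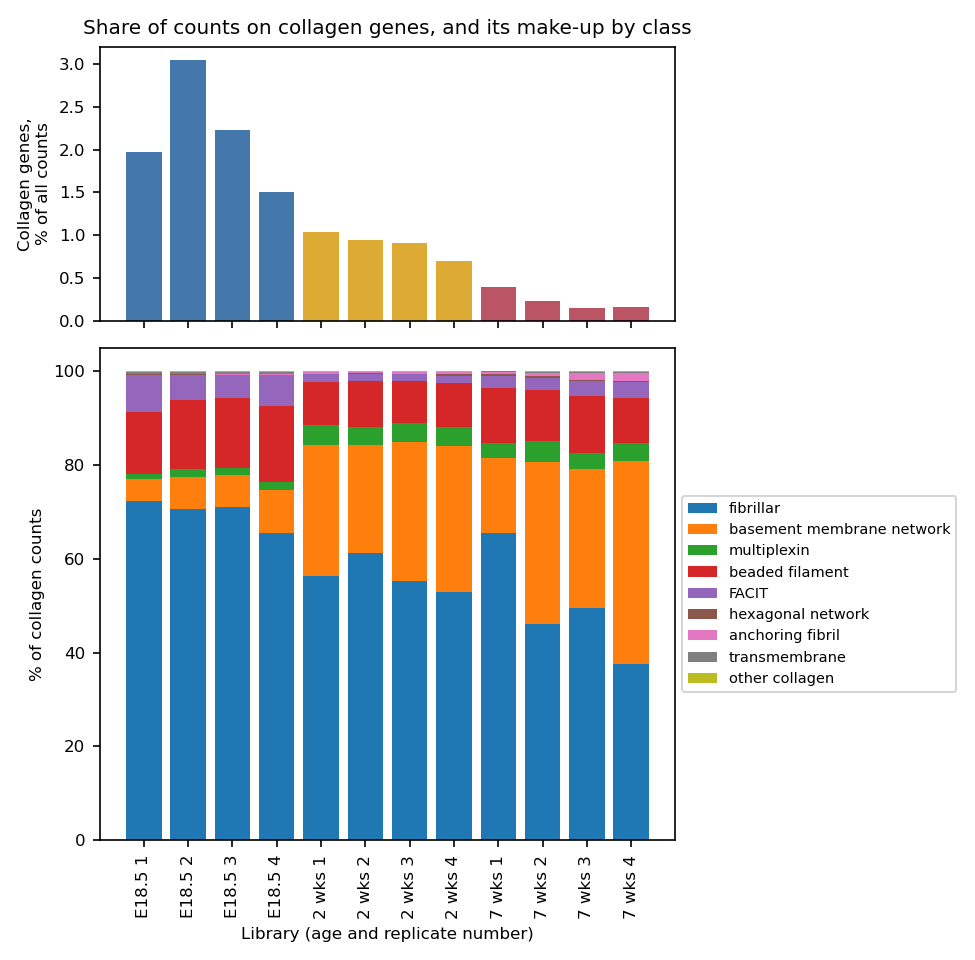
Top, share of all counts on the 44 collagen genes in each library (%); bottom, split of the collagen counts by class (%), with libraries along the x axis by age and replicate. The top bars fall from 1.51–3.05% at E18.5 to 0.149–0.388% at 7 wks, and the type IV part is wider at 2 wks and 7 wks than at E18.5.

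Per kilobase of the canonical transcript, the scale on which genes can be compared with each other, *Col3a1* was the highest collagen at each age by its mean. At E18.5 it had 758 ± 161 CPM per kb (SD, n = 4), followed by *Col1a2* (453 ± 164), *Col1a1* (212 ± 133), *Col6a1* (152 ± 51.8) and *Col4a1* (89.6 ± 29.9). At 2 wks *Col3a1* (428 ± 133) was followed by *Col4a1* (286 ± 43.6), *Col1a2* (265 ± 42.9), *Col1a1* (225 ± 39.5) and *Col4a2* (139 ± 19.9). At 7 wks the order was *Col3a1* (124 ± 75.3), *Col1a2* (99.5 ± 95.1), *Col4a1* (83.8 ± 20.1), *Col4a2* (50.5 ± 8.47) and *Col1a1* (48.9 ± 42.7). Neighbours in these orders overlapped within 1 SD of their means, except *Col1a1* and *Col4a2* at 2 wks and *Col4a1* and *Col4a2* at 7 wks.

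The 11 fibrillar genes encode chains that form fibrils. From E18.5 to 2 wks 1 of them rose and 5 fell (31.5% and 34.2% of all genes), and from 2 to 7 wks 9 fell (13.9%). At 7 wks relative to E18.5, 9 were lower (37.1%). The median log2 fold changes were -0.83, -1.78 and -2.61. Scaled to the total count, and likewise with the GC trend removed, 8 fell to 2 wks and the other 3 were not called. Of all genes 61.9% and 39.7% fell under these settings. Leaving out 1 library at a time gave 3 to 7 falls in the first interval, lowest without E18.5 replicate 2, and 6 to 9 in the second.

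*Col3a1*, the single chain of type III collagen, was at 4392, 5141, 4342 and 2989 CPM at E18.5, 3030.0, 2944, 2064 and 1479 at 2 wks, and 1273, 711, 438 and 341 in the 7 wks libraries. All libraries at 7 wks were below all those at 2 wks. The change to 2 wks was -0.83 ± 0.37 (SE, adjusted p = 0.0621), short of the threshold, while it fell from 2 to 7 wks with -1.78 ± 0.38 (SE, adjusted p = 0.00385). The change to 2 wks passed under every other scaling, filter and model tried except the test beyond a log2 fold change of 1. Among these were total counts (-1.73, adjusted p = 0.00109), the GC trend removed (-1.22, adjusted p = 0.0117) and DESeq2 (-0.88, adjusted p = 0.0242). It also passed without 7 wks replicate 1 (-0.82, adjusted p = 0.0243), 7 wks replicate 4 or E18.5 replicate 4.

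*Col1a1* and *Col1a2* encode the chains of type I collagen. *Col1a1* was at 819.9, 2404, 1126 and 674 CPM at E18.5, 1127, 1224, 1665 and 1321 at 2 wks, and 666, 191, 187 and 116 in the 7 wks libraries. The spread at E18.5 took in all values at 2 wks, and 7 wks replicate 1 stood above the other 3 of its age yet below every earlier library. Its change to 2 wks was 0.09 ± 0.49 (SE, adjusted p = 0.883) and, scaled to the total count, -0.86 (adjusted p = 0.126), neither past the threshold. With the GC trend removed it was -1.04 (adjusted p = 0.0889). It fell from 2 to 7 wks, with -2.20 ± 0.51 (SE, adjusted p = 0.00673), or -3.02 without 7 wks replicate 1.

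*Col1a2* was at 2309, 3601, 2326 and 1469.9 CPM at E18.5, 1268, 1386, 1752 and 1266 at 2 wks, and 1290.2, 362, 291 and 189 in the 7 wks libraries. Replicate 1 at 7 wks lay among the libraries at 2 wks, and the other 3 lay below them. The change to 2 wks was -0.78 ± 0.48 (SE, adjusted p = 0.166), which passed the threshold when 7 wks replicate 1 was left out (-0.77; adjusted p = 0.0252) and scaled to the total count (-1.71; adjusted p = 0.00531). Thereafter it fell, with -1.41 ± 0.48 (SE, adjusted p = 0.0435). That call ended with the GC trend removed (-1.15; adjusted p = 0.104), and it was lost when any one of 9 of the 12 libraries was left out, all 2 wks libraries among them. Without 7 wks replicate 1 the fall was -2.34 (adjusted p = 0.000411). In these libraries the tendon marker sum was 487, 181, 256 and 155 CPM and the fibroblast marker sum 1008, 530.1, 484 and 399 CPM at 7 wks, with replicate 1 highest in both, and their part in the type I values was not tested.

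Type V chains are built into type I fibrils. *Col5a1* fell in both intervals, with -0.94 (adjusted p = 0.0273) and -1.80 (adjusted p = 0.00239), though the first fall was not called without E18.5 replicate 2 (-0.60; adjusted p = 0.114). *Col5a2* fell with -1.65 (adjusted p = 0.000546) and -1.27 (adjusted p = 0.0108). *Col5a3* went from 116 ± 45.7 CPM over 162 ± 22.7 to 83.2 ± 13.2. Its change to 2 wks was 0.47 (adjusted p = 0.0834), or -0.45 scaled to the total count, -0.93 and called lower with the GC trend removed (adjusted p = 0.00152), and 0.78 and called higher without E18.5 replicate 2. It fell thereafter with -0.96 (adjusted p = 0.00828). That fall was not called with the GC trend removed (-0.42; adjusted p = 0.133).

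*Col2a1*, the chain of type II collagen of cartilage, was at 7.38, 73.0, 2.78 and 3.02 CPM at E18.5, 1.43, 2.42, 6.81 and 6.04 at 2 wks, and 0.622, 0.326, 0.414 and 0.429 in the 7 wks libraries. E18.5 replicate 2 stood far above the other 3, which overlapped with the libraries at 2 wks. It fell from E18.5 to 2 wks with -2.37 ± 0.89 (SE, adjusted p = 0.031), but without E18.5 replicate 2 the change was -0.07 (adjusted p = 0.907). It then fell from 2 to 7 wks with -3.23 ± 1.0 (SE, adjusted p = 0.0277) and no overlap between ages. The call was lost when 2 wks replicate 3 or 4 or any library at 7 wks was left out, with estimates from -3.42 to -2.89. *Col11a1* and *Col11a2*, which join type II in cartilage fibrils and are also made outside cartilage, differed in direction. *Col11a1* fell to 2 wks with -2.61 (adjusted p = 0.00346), and from 2 to 7 wks its change was -0.91 (adjusted p = 0.313), or -2.03 and called without 7 wks replicate 1. *Col11a2* went from 8.32, 26.7, 5.88 and 4.46 CPM at E18.5 to 14.3, 18.2, 43.2 and 29.9 at 2 wks, a rise of 1.22 (adjusted p = 0.0452). That rise was not called scaled to the total count (0.26), turned to -0.15 with the GC trend removed and was 2.09 without E18.5 replicate 2. It was lost when any one of 7 other libraries was left out. Thereafter the gene fell with -1.87 (adjusted p = 0.016).

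The cartilage and bone list (*Acan*, *Hapln1*, *Matn1*, *Cnmd*, *Snorc*, *Sox9*, *Ibsp*, *Bglap* and *Sp7*) summed to 61.6, 85.0, 26.9 and 23.6 CPM at E18.5, 3.57, 21.9, 12.9 and 5.29 at 2 wks and 2.71, 3.01, 1.46 and 3.43 at 7 wks. Of its 7 tested genes 6 fell and 1, *Bglap*, rose to 2 wks (34.2% and 31.5% of all genes). From 2 to 7 wks 3 fell (13.9%). *Matn1* and *Snorc* were at 0 in every library of 2 wks and 7 wks. *Acan*, the main proteoglycan of cartilage, averaged 19.6, 1.28 and 0.153 CPM at the 3 ages. The part of such tissue in the values of types II, IX, X and XI was not tested.

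Of the other fibrillar genes, *Col27a1* fell in both intervals (-1.23 and -1.89; adjusted p = 0.000788 and 0.000262), and its 4 libraries at 7 wks spanned only 2.83 to 2.97 CPM. *Col24a1* had the smallest total change of the class that passed, -0.53 (adjusted p = 0.0253) from E18.5 to 7 wks, which was not called without E18.5 replicate 2 (adjusted p = 0.0838).

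**Figure D4:**
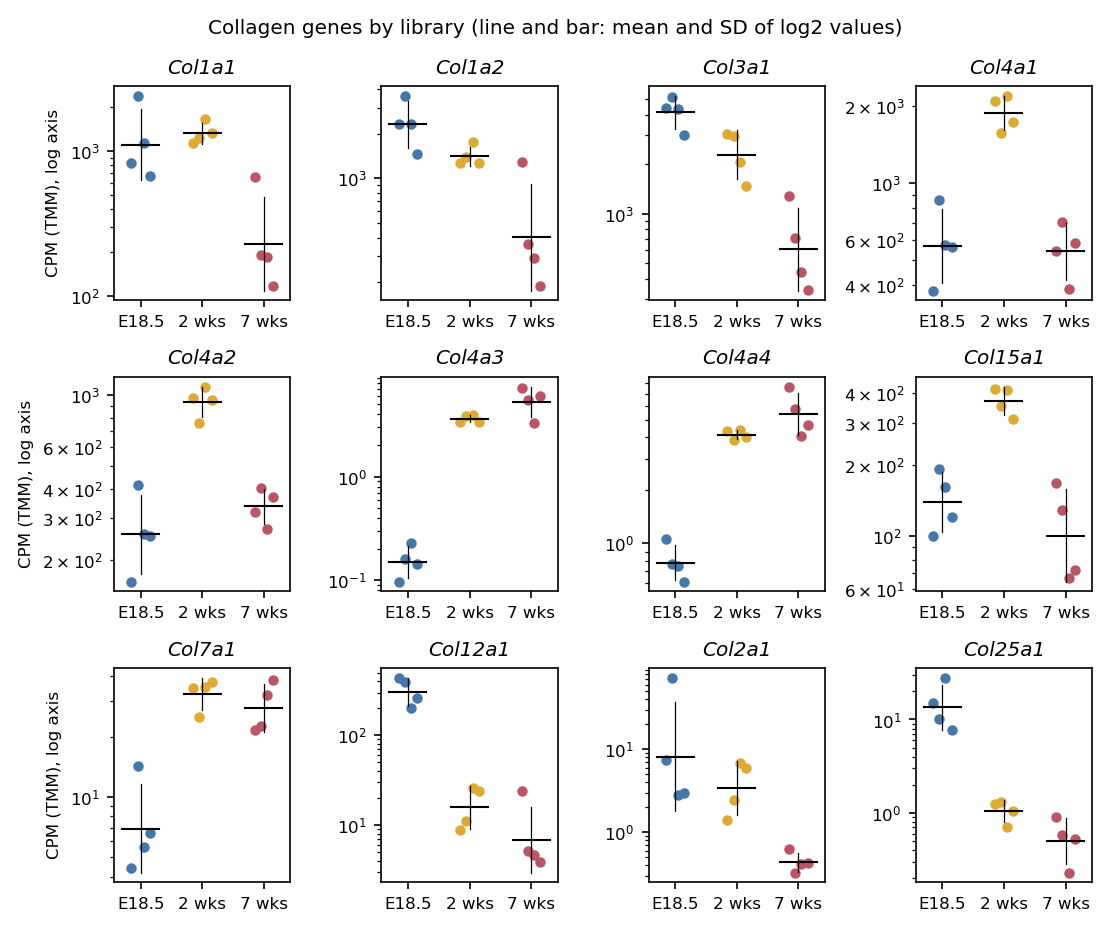
CPM (log y axis) of 12 collagen genes in each library (points) at E18.5, 2 wks and 7 wks; horizontal lines and vertical bars are the mean and SD of the log2 values of 4 mice. *Col4a1*, *Col4a2* and *Col15a1* peak at 2 wks, *Col4a3*, *Col4a4* and *Col7a1* are lowest at E18.5, and in *Col1a1*, *Col1a2* and *Col12a1* 1 library at 7 wks stands above the other 3.

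Of the 6 type IV genes, 4 rose and 1 fell from E18.5 to 2 wks (31.5% and 34.2% of all genes), and 2 fell from 2 to 7 wks (13.9%). Scaled to the total count 4 rose (13.2%) and 2 fell (61.9%) to 2 wks. With the GC trend removed 3 rose (26.8% of all genes) and 2 fell (39.7%). Type IV chains assemble in 3 known combinations, the common one of *Col4a1* and *Col4a2* and restricted ones with *Col4a3*, *Col4a4* and *Col4a5* or with *Col4a5* and *Col4a6*.

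*Col4a1* was at 379.9, 858, 571 and 561 CPM at E18.5, 2085, 1573, 2185 and 1734 at 2 wks, and 542, 706, 384 and 586 in the 7 wks libraries. Every library at 2 wks was above every library of the other ages, and E18.5 and 7 wks overlapped. It rose by 3.20-fold to 2 wks, a log2 change of 1.68 ± 0.25 (SE, adjusted p = 6.36e-05). The rise was 0.74 scaled to the total count and 0.62 with the GC trend removed, both called (adjusted p = 0.0152 and 0.0206). It fell from 2 to 7 wks with -1.77 ± 0.25 (SE, adjusted p = 0.000309). The contrast of the intervals was 3.45 (adjusted p = 6.16e-05). At 7 wks it was at -0.10 against E18.5 (adjusted p = 0.741) and at 0.14 without E18.5 replicate 2, but at -1.37 scaled to the total count and at -0.84 with the GC trend removed, both called lower.

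*Col4a2* was at 162, 415, 257 and 251 CPM at E18.5, 971, 758, 1081 and 946 at 2 wks, and 319.8, 401, 271 and 369.7 in the 7 wks libraries. It followed the same order, with all libraries at 2 wks above the rest. It rose with 1.79 ± 0.25 (SE, adjusted p = 3.37e-05) and fell with -1.46 ± 0.25 (SE, adjusted p = 0.00101). With the GC trend removed the rise was 0.44 and not called (adjusted p = 0.0586). The change from E18.5 to 7 wks was 0.33 (adjusted p = 0.24). It was 0.61 and called without E18.5 replicate 2, but negative and called when scaled to the total count (-0.95) and with the GC trend removed (-0.54).

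*Col4a3*, a chain best known from the kidney's glomerular basement membrane, was at 0.0970, 0.162, 0.229 and 0.145 CPM at E18.5, 3.39, 3.81, 3.96 and 3.37 at 2 wks, and 7.10, 5.50, 3.26 and 6.04 in the 7 wks libraries. It was low at E18.5, and each later library lay above all libraries at E18.5. The rise to 2 wks was 4.50 ± 0.31 (SE, adjusted p = 9.03e-08), the largest among the 44 genes. Its change from 2 to 7 wks was 0.59 ± 0.26 (SE, adjusted p = 0.107), short of the threshold. Of its exon bases 8.5% are shared with *C430014B12Rik* on the opposite strand. *Col4a4*, its usual partner chain, was at 1.06, 0.765, 0.746 and 0.608 CPM at E18.5, 4.29, 3.81, 4.37 and 4.01 at 2 wks, and 7.66, 5.75, 4.06 and 4.67 in the 7 wks libraries. It rose to 2 wks with 2.37 ± 0.24 (SE, adjusted p = 2.32e-06) and changed by 0.42 ± 0.23 (SE, adjusted p = 0.181) thereafter. Both were called higher at 7 wks than at E18.5 scaled to the total count (3.81 and 1.53). Per kilobase they were low beside the common chains, 0.640 ± 0.189 and 0.535 ± 0.153 CPM per kb at 7 wks against 83.8 ± 20.1 for *Col4a1*.

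*Col4a5* went the other way, from 10.1, 11.6, 18.6 and 23.6 CPM at E18.5 to 8.69, 7.15, 6.16 and 5.83 at 2 wks and 7.38, 4.80, 1.87 and 2.99 at 7 wks. It fell to 2 wks with -1.20 ± 0.37 (SE, adjusted p = 0.0103) without overlap of these ages, and without 7 wks replicate 1 it also fell from 2 to 7 wks (-1.11 against -0.71 with it). Scaled to the total count it was called lower in that interval too (-1.07; adjusted p = 0.046). *Col4a6* was under 1 CPM in all libraries, and its changes were -0.43 (adjusted p = 0.24) and -0.10 (adjusted p = 0.848). The first was called lower scaled to the total count (-1.38; adjusted p = 0.00179) and with the GC trend removed (-0.99; adjusted p = 0.0109). Under both settings the gene was also called lower at 7 wks than at E18.5 (-1.82 and -0.98).

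Capillary endothelium lies on a type IV basement membrane too. The 6 endothelial markers (*Pecam1*, *Cdh5*, *Kdr*, *Tek*, *Emcn* and *Cldn5*) summed to 343 to 495 CPM at E18.5, 762 to 923 at 2 wks, and 459 to 754 in the 7 wks libraries. Of these, 4 rose to 2 wks (31.5% of all genes) and 3 fell from 2 to 7 wks (13.9%), and each had reads at every age. *Cdh5*, which encodes VE-cadherin of endothelial junctions, changed by 1.64 and -0.77 (adjusted p = 1.02e-05 and 0.0102). The part of the endothelium in the type IV values was not tested.

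*Col15a1* and *Col18a1*, the multiplexins, are basement membrane zone collagens with interrupted helices. *Col15a1* was at 101, 192, 161 and 121 CPM at E18.5, 415, 353, 409 and 310.0 at 2 wks, and 167, 129, 66.7 and 72.4 in the 7 wks libraries. As with *Col4a1*, all libraries at 2 wks exceeded those of the other ages. It rose with 1.37 ± 0.29 (SE, adjusted p = 0.000847) and fell with -1.78 ± 0.29 (SE, adjusted p = 0.000805). The rise was not called scaled to the total count (0.44; adjusted p = 0.189) or with the GC trend removed (0.51; adjusted p = 0.134). From E18.5 to 7 wks the change was -0.40 (adjusted p = 0.212). It was called lower without 7 wks replicate 1 (-0.68), scaled to the total count (-1.68) and with the GC trend removed (-1.02). *Col18a1*, the source of endostatin, was at 28.8, 97.8, 44.8 and 44.9 CPM at E18.5, 51.4, 41.3, 52.2 and 42.9 at 2 wks, and 16.6, 14.2, 11.7 and 10.8 in the 7 wks libraries. E18.5 replicate 2 stood above the libraries at 2 wks, and the other 3 overlapped with them or lay below. The change to 2 wks was -0.20 (adjusted p = 0.55), or 0.25 without that library. It was called lower scaled to the total count (-1.13, adjusted p = 0.00307) and with the GC trend removed (-1.48, adjusted p = 0.000118). It fell from 2 to 7 wks with -1.82 ± 0.30 (SE, adjusted p = 0.000836), these ages not overlapping. Of its exon bases 12.7% are shared with *Slc19a1* on the opposite strand, and whether counting used the strand is not given in the sources used here.

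Type VI chains form beaded filaments, and mutations in them cause muscle disease in people. Of the 6 genes *Col6a4* was tested only because of its level at E18.5. Of the other 5, 4 fell to 2 wks (34.2% of all genes) and 4 fell from 2 to 7 wks (13.9%). All 5 were lower at 7 wks relative to E18.5 (37.1%). The median log2 fold changes over the 6 genes were -1.73, -1.27 and -2.51. The second count was 2 without 7 wks replicate 2 or 4 and 5 without 7 wks replicate 1.

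*Col6a1* was at 489, 931, 605 and 474 CPM at E18.5, 404, 385, 353 and 289 at 2 wks, and 221, 130.0, 113 and 84.3 in the 7 wks libraries. It fell in both intervals without overlap, with -0.80 (adjusted p = 0.0228) and -1.39 (adjusted p = 0.00348), the first not called without E18.5 replicate 2 (-0.54; adjusted p = 0.0878). *Col6a2* was at 257, 673, 382 and 295 CPM at E18.5, 326, 321, 319 and 284 at 2 wks, and 192, 109, 88.7 and 68.6 in the 7 wks libraries. Its libraries at E18.5 lay on both sides of those at 2 wks, and the change to 2 wks was -0.36 (adjusted p = 0.333), or 0.01 without E18.5 replicate 2. Scaled to the total count this was -1.29 and called (adjusted p = 0.00284). After 2 wks it fell with -1.45 ± 0.33 (SE, adjusted p = 0.0057). *Col6a3*, the largest of the classical chains, fell with -1.50 (adjusted p = 0.00163) and -1.19 (adjusted p = 0.0197).

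*Col6a4*, *Col6a5* and *Col6a6* encode the later-found chains. *Col6a6* fell from 204 ± 37.7 CPM to 35.3 ± 18.1 and then 13.8 ± 8.19, with -2.53 (adjusted p = 0.000132) and -1.36 (adjusted p = 0.023). *Col6a5* fell to 2 wks with -2.69 (adjusted p = 0.00191), and at 7 wks its libraries held 0.903, 0.186, 0.0153 and 0.132 CPM, with replicate 1 highest. Without that library its change from 2 to 7 wks passed the threshold (-2.36 against -0.95). *Col6a4* reached the level needed for testing at E18.5 only (0.323 ± 0.0921 CPM), so it had to differ to be tested, and its estimate to 2 wks was -1.96 (adjusted p = 0.00939).

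FACIT collagens lie on the surface of fibrils. Of the 9 genes 2 rose and 5 fell to 2 wks (31.5% and 34.2% of all genes), and 3 fell from 2 to 7 wks (13.9%). At 7 wks relative to E18.5, 1 was higher and 6 were lower (34.3% and 37.1%). Without E18.5 replicate 2 the falls were 3 in the first interval and 5 in the second.

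*Col12a1*, abundant in developing tendon and fascia, was at 437, 389, 203 and 258 CPM at E18.5, 8.86, 11, 26.1 and 24.1 at 2 wks, and 24.2, 5.14, 4.60 and 3.89 in the 7 wks libraries. All libraries at E18.5 were far above all later ones, and 7 wks replicate 1 stood with the higher libraries at 2 wks. It fell to 2 wks with -4.20 ± 0.61 (SE, adjusted p = 4.78e-05), a change of 18.4-fold. The change from 2 to 7 wks was -0.89 (adjusted p = 0.241) with all 4 libraries, and -1.95 and called without 7 wks replicate 1 (adjusted p = 0.00412). The 6 tendon markers (*Tnmd*, *Scx*, *Mkx*, *Fmod*, *Kera* and *Thbs4*) summed to 435, 413, 159.7 and 144 CPM at E18.5 and 59.1, 70.8, 359.6 and 383 at 2 wks. Of these, 3 fell (34.2% of all genes did) and 3 were not called from E18.5 to 2 wks. None of the 6 markers was called from 2 to 7 wks, with estimates from -0.77 to 0.65. Their part in the values of *Col12a1* was not tested.

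*Col14a1* was at 455, 438, 354 and 291 CPM at E18.5, 82.5, 77.1, 39.0 and 33.3 at 2 wks, and 33.3, 14.7, 8.46 and 6.91 in the 7 wks libraries. The ages did not overlap, but 7 wks replicate 1 lay just under the lowest library at 2 wks. It fell in both intervals, with -2.73 ± 0.46 (SE, adjusted p = 0.000151) and -1.87 ± 0.45 (SE, adjusted p = 0.00756), the second being -2.53 without 7 wks replicate 1. *Col19a1* fell to 2 wks with -2.62 (adjusted p = 2.3e-05), and from 2 to 7 wks its change was -0.22 (adjusted p = 0.695). The change of *Col16a1* to 2 wks was -0.62 (adjusted p = 0.168) and, without E18.5 replicate 2, 0.04. It was called lower scaled to the total count (-1.55, adjusted p = 0.00245) and with the GC trend removed (-1.94, adjusted p = 0.000201). *Col16a1* fell from 2 to 7 wks with -1.87 (adjusted p = 0.00406).

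Type IX chains decorate type II fibrils in cartilage. All 3 had their highest value in E18.5 replicate 2, 11.4 CPM for *Col9a1*, 5.71 for *Col9a2* and 7.25 for *Col9a3*. The falls of *Col9a2* and *Col9a3* to 2 wks (-1.39 and -1.51) were not called without that library (-0.22 and -0.16; adjusted p = 0.548 and 0.694). Their changes from 2 to 7 wks (-1.02 and -1.76) were called without it (adjusted p = 0.0256 and 0.00299, against 0.216 and 0.0681 with it). That of *Col9a3* was also called with all libraries when scaled to the total count (-2.13; adjusted p = 0.027) and by DESeq2 (-1.78; adjusted p = 0.0151). Of the exon bases of *Col9a3* 11.8% are shared with *Tcfl5* on the opposite strand. *Col9a1* was at 1.83, 11.4, 0.561 and 0.484 CPM at E18.5, 0.637, 0.742, 3.40 and 1.37 at 2 wks and 3.25, 3.23, 1.99 and 3.99 at 7 wks. Its changes were -1.22 (adjusted p = 0.217) and 1.02 (adjusted p = 0.396), and without E18.5 replicate 2 it was called higher at 7 wks than at E18.5 (1.71 against -0.20 with it).

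*Col20a1* and *Col22a1* were the FACIT genes that rose to 2 wks. *Col20a1* went from 7.71 ± 2.74 CPM over 19.7 ± 4.09 to 10.5 ± 1.79. It rose to 2 wks with 1.35 (adjusted p = 0.000198) and fell with -0.90 (adjusted p = 0.0119), but the rise was not called scaled to the total count (0.44) or with the GC trend removed (0.26). *Col22a1*, a collagen of the junction between muscle and tendon, was at 20.2, 31.7, 16.9 and 14.9 CPM at E18.5, 22.4, 23.1, 49.7 and 39.7 at 2 wks, and 58.5, 38.1, 39.0 and 38.3 in the 7 wks libraries. At 7 wks all libraries were above those at E18.5. Against E18.5 it was higher at 2 wks, with 0.69 (adjusted p = 0.048), and at 7 wks, with 1.05 (adjusted p = 0.00482). The first call was lost when any one of 8 libraries was left out, and scaled to the total count the estimates were -0.27 and -0.22, not called.

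Types VIII and X form hexagonal networks. *Col10a1*, the collagen of hypertrophic cartilage, was at 2.37, 3.95, 0.493 and 3.71 CPM at E18.5 and 0.0168, 0.0825, 0.110 and 0.144 at 2 wks, the latter from 1, 8, 8 and 11 counts. It fell to 2 wks with -4.85 ± 0.67 (SE, adjusted p = 2.96e-05). At 7 wks the libraries held 0, 0, 2 and 1 counts, so no fold is given against that age. Like *Col6a4* it passed the filter on low counts through E18.5 alone, and 20.8% of its exon bases are shared with *Nt5dc1* on the opposite strand.

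*Col8a1*, in vessel walls and corneal membranes, was at 19.4, 14.8, 7.02 and 8.27 CPM at E18.5, 7.33, 6.0, 16.2 and 22.5 at 2 wks, and 21.5, 13.0, 5.61 and 6.55 in the 7 wks libraries. The ages overlapped throughout, and its changes were 0.07 (adjusted p = 0.905), or -0.89 scaled to the total count, and -0.16 (adjusted p = 0.842). *Col8a2* was at 8.87, 16.1, 8.41 and 4.73 CPM at E18.5, 1.24, 1.13, 2.67 and 3.11 at 2 wks, and 3.35, 0.947, 0.659 and 0.330 in the 7 wks libraries. It fell to 2 wks with -2.22 ± 0.60 (SE, adjusted p = 0.00488). From 2 to 7 wks the change was -0.64 (adjusted p = 0.451), and without 7 wks replicate 1 it was -1.65 and called.

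*Col7a1* encodes the anchoring fibrils best known from skin. It was at 4.42, 14.3, 5.62 and 6.62 CPM at E18.5, 35.0, 25.0, 35.3 and 37.3 at 2 wks, and 21.6, 22.7, 32.3 and 38.1 in the 7 wks libraries. Every library at 2 wks and 7 wks was above every library at E18.5, and the later ages overlapped. It rose to 2 wks with 2.10 ± 0.33 (SE, adjusted p = 8.05e-05), which was 1.17 scaled to the total count and 0.75 with the GC trend removed, both called. The change thereafter was -0.21 (adjusted p = 0.654), or 0.24 with the GC trend removed. At 7 wks it was higher than at E18.5 by 1.89 (adjusted p = 0.000131), which was 0.61 and not called scaled to the total count (adjusted p = 0.0797). The 7 epidermis markers (*Krt5*, *Krt14*, *Krt1*, *Krt10*, *Dsp*, *Perp* and *Dsg3*) summed to 4.33 to 56.0 CPM at E18.5, 4.30 to 5.37 at 2 wks, and 3.51 to 10.6 in the 7 wks libraries. Of 6 tested, 5 fell to 2 wks (34.2% of all genes did) and 1 was not called. *Krt5* rose from 2 to 7 wks, and *Dsg3* was at 0 in every library of 2 wks. Their part in the values of *Col7a1* was not tested. At E18.5 replicate 2 was highest in both *Col7a1* and these markers, and without it the rise was 2.58.

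Transmembrane collagens are held in the cell membrane and can be shed. Of the 4 genes 3 fell from E18.5 to 2 wks (34.2% of all genes), and 3 were lower at 7 wks relative to E18.5 (37.1%). From 2 to 7 wks the 4 changes were not called. Scaled to the total count, *Col13a1* (-1.24; adjusted p = 0.0227), *Col23a1* (-0.74; adjusted p = 0.029) and *Col25a1* (-1.33; adjusted p = 0.0401) were called lower in that interval. *Col17a1* was not (-0.64; adjusted p = 0.0886). *Col25a1*, whose product acts on motor axons growing into muscle, was at 15, 10.1, 28.0 and 7.74 CPM at E18.5, 1.24, 1.32, 0.712 and 1.06 at 2 wks, and 0.903, 0.575, 0.230 and 0.528 in the 7 wks libraries. It fell to 2 wks with -3.81 ± 0.44 (SE, adjusted p = 7.2e-06), a change of 14-fold without overlap, and the change from 2 to 7 wks was -0.97 (adjusted p = 0.113). *Col23a1* was at 44.8, 50.3, 34.6 and 37.0 CPM at E18.5, 8.52, 6.92, 4.97 and 4.34 at 2 wks, and 4.19, 6.0, 4.66 and 4.32 in the 7 wks libraries. It fell to 2 wks with -2.75 ± 0.23 (SE, adjusted p = 4.28e-07), and the ages after it overlapped. In both the contrast of the intervals was negative (-2.84 and -2.39; adjusted p = 0.0108 and 0.000605). *Col17a1*, of the hemidesmosomes that hold epidermal cells, fell from 3.47 ± 0.889 CPM to 1.74 ± 0.150, with -1.0 (adjusted p = 0.00384). *Col13a1*, which matures the synapse between nerve and muscle, was at 0.943, 2.27, 0.844 and 0.768 CPM at E18.5 and 1.06, 1.13, 1.96 and 2.44 at 2 wks, with changes of 0.45 (adjusted p = 0.309) and -0.93 (adjusted p = 0.0939). Without E18.5 replicate 2 both were called (0.96 and -0.93; adjusted p = 0.02 and 0.0357).

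*Col26a1* and *Col28a1* belong to none of these classes. *Col26a1* was at 12.5, 31.0, 17.9 and 11.5 CPM at E18.5, 9.36, 7.60, 11 and 9.51 at 2 wks, and 2.37, 1.29, 1.67 and 1.12 in the 7 wks libraries. It fell in both intervals without overlap, with -0.96 ± 0.30 (SE, adjusted p = 0.0123) and -2.54 ± 0.32 (SE, adjusted p = 0.000139), and without E18.5 replicate 2 the first was -0.57 and not called (adjusted p = 0.054). *Col28a1* was at 2.19, 1.74, 1.98 and 2.05 CPM at E18.5, 5.70, 2.82, 2.22 and 1.86 at 2 wks, and 1.75, 1.71, 1.16 and 1.02 in the 7 wks libraries. The libraries at 7 wks were below those at 2 wks, of which replicate 1 was highest. The change to 2 wks was 0.66 (adjusted p = 0.0835), or -0.23 scaled to the total count and 0.82 and called with the GC trend removed (adjusted p = 0.0312). It fell thereafter with -1.16 ± 0.33 (SE, adjusted p = 0.0185). Without 2 wks replicate 1 the fall was -0.72 and not called (adjusted p = 0.0704), and without 7 wks replicate 4 it was -1.03 and not called.

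The ratio of 2 genes within a library does not depend on how libraries are scaled. Ratios of counts are not corrected for transcript length, so only their change between ages is compared. The ratio of *Col1a2* to *Col1a1* counts was 2.82, 1.5, 2.07 and 2.18 at E18.5, 1.12, 1.13, 1.05 and 0.958 at 2 wks and 1.94, 1.90, 1.56 and 1.62 at 7 wks. All libraries at 2 wks were below those of both other ages. The mean log2 ratio changed by -0.97 in the first interval and by 0.72 in the second (exact permutation p = 0.0286, adjusted over the 8 tests 0.0571, in each). That p is the smallest that 4 mice against 4 allow, and after correction over the 8 ratio tests none passed 0.05.

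The ratio of *Col4a1* to *Col1a1* was 0.463, 0.357, 0.507 and 0.832 at E18.5 and 1.85, 1.29, 1.31 and 1.31 at 2 wks, without overlap. The log2 difference was 1.47 (exact permutation p = 0.0286, adjusted over the 8 tests 0.0571). At 7 wks it was 0.814, 3.70, 2.06 and 5.03, with replicate 1 lowest and the other 3 above all libraries at 2 wks, and the difference of 0.73 was not past the threshold (exact permutation p = 0.314, adjusted over the 8 tests 0.314). The ratio of *Col4a2* to *Col4a1* was 0.426, 0.483, 0.451 and 0.448 at E18.5, 0.466, 0.482, 0.495 and 0.545 at 2 wks and 0.590, 0.568, 0.706 and 0.631 at 7 wks. The log2 difference was 0.14 to 2 wks (exact permutation p = 0.0857, adjusted over the 8 tests 0.114), which turned to -0.18 with the GC trend removed. After 2 wks it was 0.33, all 7 wks libraries above those at 2 wks (exact permutation p = 0.0286, adjusted over the 8 tests 0.0571). The ratio of *Col3a1* to *Col1a1* was 5.36, 2.14, 3.86 and 4.43 at E18.5, 2.69, 2.41, 1.24 and 1.12 at 2 wks and 1.91, 3.73, 2.35 and 2.93 at 7 wks. The ages overlapped, and the differences of -1.11 (exact permutation p = 0.0857, adjusted over the 8 tests 0.114) and 0.61 (exact permutation p = 0.2, adjusted over the 8 tests 0.229) did not pass.

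**Figure D5:**
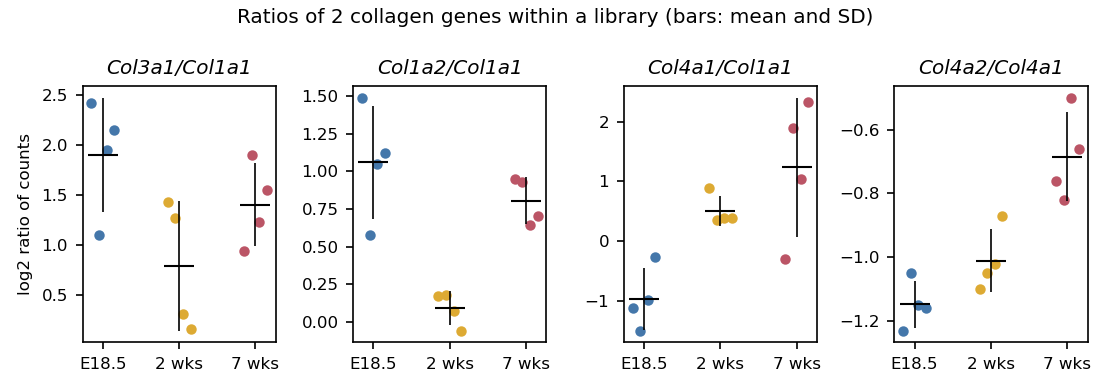
Log2 ratio of the counts of 2 collagen genes (y axis) in each library (points) at E18.5, 2 wks and 7 wks (x axis), with lines and bars for the mean and SD of 4 mice. *Col1a2* to *Col1a1* is lowest in the 4 libraries at 2 wks, and *Col4a1* to *Col1a1* is lower in the 4 libraries at E18.5 than in those at 2 wks.

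Collagen chains are hydroxylated, glycosylated and folded in the endoplasmic reticulum before they leave the cell. Of 20 genes of these steps, 2 rose and 10 fell to 2 wks (31.5% and 34.2% of all genes). From 2 to 7 wks 2 rose and 9 fell (13.5% and 13.9%). At 7 wks relative to E18.5, 2 were higher and 15 lower (34.3% and 37.1%). The medians were -0.41, -0.58 and -1.45. Scaled to the total count, which moves the median of all genes down by 0.93, 19 of the 20 fell to 2 wks, as did 61.9% of all genes. *Plod2*, the lysyl hydroxylase of the crosslinking telopeptides, averaged 98.7, 12.9 and 8.61 CPM at the 3 ages and fell to 2 wks with -2.94 (adjusted p = 8.88e-07). *P4ha3*, a prolyl 4-hydroxylase subunit, fell in both intervals with -3.56 and -2.82 (adjusted p = 4.36e-06 and 0.00058). *Serpinh1*, the collagen chaperone HSP47, averaged 268, 265 and 89.7 CPM. Its change to 2 wks was -0.01. It was called lower scaled to the total count (-0.95; adjusted p = 0.000696) and with the GC trend removed (-0.89; adjusted p = 0.000195). *Serpinh1* fell from 2 to 7 wks with -1.56 (adjusted p = 0.000151). *Fkbp10*, a prolyl isomerase that binds procollagen, fell from 2 to 7 wks with -2.14 (adjusted p = 0.000381). *Mia3*, which loads procollagen for export, rose in both intervals with 0.40 and 0.71 (adjusted p = 0.0144 and 0.00164), but scaled to the total count the first was -0.54. *Plod1* rose to 2 wks with 1.06 (adjusted p = 0.000306), or 0.13 scaled to the total count. *P4ha1* rose from 2 to 7 wks with 0.51 (adjusted p = 0.0418), or 0.16 and not called scaled to the total count (adjusted p = 0.482).

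Outside the cell, proteases trim procollagen and lysyl oxidases crosslink it. Of 13 such genes 3 rose and 4 fell to 2 wks, against 31.5% and 34.2% of all genes. From 2 to 7 wks 7 fell (13.9% of all genes), and the 13 estimates ran from -1.73 to -0.04. *Lox*, the main lysyl oxidase, averaged 182, 26.3 and 12.1 CPM and fell to 2 wks with -2.80 (adjusted p = 6.38e-05). *Loxl2*, which acts on type IV collagen, fell in both intervals with -1.43 and -1.09 (adjusted p = 0.000393 and 0.00958). *Pxdn*, the peroxidasin that makes sulfilimine bonds in type IV collagen, averaged 194, 171 and 76.1 CPM. It changed by -0.18 to 2 wks, which was -1.10 scaled to the total count and -0.67 with the GC trend removed. Both of these were called lower (adjusted p = 2.93e-05 and 0.00083). *Pxdn* fell from 2 to 7 wks with -1.17 (adjusted p = 0.000128). *Pcolce*, an enhancer of C-propeptide cleavage, rose to 2 wks with 0.77 (adjusted p = 0.0433), or -0.15 scaled to the total count, and then fell with -1.56 (adjusted p = 0.00332).

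Of 9 collagen receptor genes, 3 rose and 3 fell to 2 wks (31.5% and 34.2% of all genes). From 2 to 7 wks 2 fell and 7 were not called (13.9% of all genes fell). At 7 wks relative to E18.5, 5 were lower (37.1%). *Itga2*, an integrin subunit that binds collagen, fell in both intervals with -2.49 and -2.16 (adjusted p = 0.000293 and 0.00466). The collagen-activated kinases differed in direction: *Ddr2* fell to 2 wks with -1.35 (adjusted p = 0.000773), while *Ddr1* rose with 1.08 (adjusted p = 0.00281), or 0.14 scaled to the total count and -0.18 with the GC trend removed. *Itga11*, a collagen receptor of fibroblasts, rose to 2 wks with 1.26 (adjusted p = 0.0176). Scaled to the total count this was 0.38 (adjusted p = 0.438) and with the GC trend removed 0.49 (adjusted p = 0.324), neither called.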

How the data were processed

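RNA of tibialis anterior muscle pieces was isolated with TRI Reagent, and libraries were made with the TruSeq Stranded mRNA kit. The deposited table, made by the authors, holds whole-number counts per gene and library, not normalised. The submitters' processing notes name bcl2fastq 2.17.1.14, cutadapt 1.10, STAR 2.5.3a, HTSeq 0.6.1p1 and mm10, while the study's methods name another build of the mouse genome. The annotation and strand setting of the counting are not given in the sources used here, so genes with overlapping exons on the opposite strand may share reads. Symbols, gene types, transcript lengths and GC content were joined by Ensembl ID from GENCODE, where 3973 of 55450 IDs, with 0.0394% of the counts, had no match. The order of genes by level is per kilobase of the canonical transcript, while ratios and class shares are of counts.

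One model of the 12 libraries was fitted to the 19276 genes kept by filterByExpr, with edgeR 4.0.16 in R 4.3.3 (quasi-likelihood test, TMM scaling, Benjamini-Hochberg adjustment over all genes tested, threshold 0.05), and was tested on simulated data. The 3 contrasts of ages and the difference between both intervals were tested. Mean TMM factors were 1.67 in E18.5, 0.876 in 2 wks and 0.687 in 7 wks libraries, and the common biological coefficient of variation was 0.279. The labels give 4 samples at each age. Pairs of libraries of 1 age differed by more than counting noise (chi-square per degree of freedom of 31.2 to 524). Log2 ratios of 4 gene pairs were compared in 2 intervals by a two-sided exact permutation test over all 70 regroupings, adjusted over the 8 tests. Alternatives were scaling to total counts, DESeq2 1.42.0, other filters, a GC correction per library (a spline over GC content, for which 19034 tested genes had a value), the replicate number as a block, a fit of only the 8 libraries compared, a test against a log2 fold change of 1, leaving out mitochondrially encoded genes, and leaving out each library. Replicate numbers occur at each age, but deviations of same-numbered libraries correlated at only -0.099 to 0.235, so the numbers were not taken to pair mice. Upstream sequences were from RefSeq (GRCm38.p6).

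Values in every library were given for the 2 members of each class with the highest mean level per kilobase and for the 3 largest rises and falls of each comparison among genes past the threshold. Other members were named to account for each class or because a left-out library or another scaling changed their call. The members and all gene lists were chosen with earlier results of these data known. A further list of markers is not reported here.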

Additional observations from a re-analysis of the deposited data

Results flagged for a closer look

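Single libraries stood far from the other 3 of their age in 5 of 81 sets of 4 values examined, by Dixon's gap test at the 95% level. Chance flags about 1 in 20 such sets, or 4.05 of 81. At 7 wks, replicate 1 had 666 CPM of *Col1a1* (the other libraries 116 to 191), 1290.2 CPM of *Col1a2* (189 to 362) and 24.2 CPM of *Col12a1* (3.89 to 5.14). At E18.5, replicate 2 had 73.0 CPM of *Col2a1*, against 2.78 to 7.38 in the others. At 2 wks, replicate 1 had a log2 ratio of *Col4a1* to *Col1a1* of 0.89, against 0.36 to 0.39.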

How the results depend on the processing

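The count of rises to 2 wks was 9, and 5 under total-count scaling, with the GC trend removed (with or without the replicate block) and in the test beyond a log2 fold change of 1. That last test also gave 11 falls to 2 wks against 22, 3 falls from 2 to 7 wks against 22, and 10 genes whose intervals differed against 17. Total-count scaling gave 2 genes, against 4, higher at 7 wks relative to E18.5. It lowers the median of all genes by 0.93, 0.35 and 1.28 in the contrasts of 2 wks with E18.5, 7 wks with 2 wks and 7 wks with E18.5. The other counts of rises, of falls and of genes whose intervals differed in either direction stayed within 1.5 times under every setting tried except left-out libraries.

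Among the 22 genes chosen by the rule for values in every library, of the estimates that turned sign those of *Col4a2* were called and the others were not. *Col1a1* to 2 wks was -0.86 (total counts), -0.03 (at least 10 counts in every library), -1.04 (GC trend removed) and -0.91 (GC with block). *Col8a1* to 2 wks was -0.89 (total counts) and -0.06 (at least 10 counts), and *Col28a1* to 2 wks -0.23 (total counts). *Col4a2* from E18.5 to 7 wks was -0.95 (total counts), -0.54 (GC) and -0.56 (GC with block), each called lower, and *Col7a1* from 2 to 7 wks 0.24 and 0.23 (GC, without and with block). With the GC trend removed, the log2 ratio of *Col4a2* to *Col4a1* turned to -0.18 in the first interval and was 0.49 in the second, that of *Col1a2* to *Col1a1* was -0.59 and 0.56, and that of *Col4a1* to *Col1a1* was 1.59 in the first, each with an adjusted exact permutation p of 0.0457. The causes were not tested.

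Leaving out 1 library at a time gave 7 to 11 rises and 16 to 24 falls to 2 wks, 0 to 1 rises and 17 to 26 falls from 2 to 7 wks, 4 to 7 genes higher and 28 to 31 lower at 7 wks relative to E18.5, and 13 to 23 genes whose intervals differed. Among the same genes signs turned within -0.12 to 0.61 for *Col1a1*, -0.41 to 0.25 for *Col18a1*, -0.53 to 0.01 for *Col6a2* and -0.32 to 0.37 for *Col8a1* to 2 wks, -0.63 to 0.25 for *Col8a1* from 2 to 7 wks, and -0.26 to 0.14 for *Col4a1* and -0.55 to 0.21 for *Col8a1* from E18.5 to 7 wks. With the replicate block, which pairs libraries by number only, 7 rose and 20 fell to 2 wks, 0 rose and 23 fell from 2 to 7 wks, 4 were higher and 29 lower at 7 wks relative to E18.5, and 17 differed between intervals. With 135524 to 3189114 collagen counts per library, depth limits mainly the lowest genes, such as *Col10a1* with at most 2 counts in a library at 7 wks.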
